A study of Mus musculus with 4 samples.

Results

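The sphingosine-1-phosphate (S1P) system was followed in 9 of the 31053 genes counted: the receptors S1pr1, S1pr2, S1pr3, S1pr4 and S1pr5, the kinases Sphk1 and Sphk2, and the transporters Spns2 and Mfsd2a. They were listed by symbol and not by a cut on a measured value, but with earlier results of these data known. All 9 were present in the count tables. S1P is a signaling lipid made inside cells when sphingosine kinases phosphorylate sphingosine. Endothelial cells pass it to the outside, where it acts on G protein-coupled receptors of neighbouring cells and of the same cell. In blood vessels this signal is known for holding endothelial junctions closed, for setting the tone of mural cells and for guiding lymphocyte exit from tissue, and Mfsd2a is known for lysolipid uptake and low vesicle traffic at the blood-brain barrier.

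The cells came from the brains of male wild-type C57BL/6 mice, 12 to 14 weeks old, after removal of cerebellum, striatum, brainstem and olfactory bulbs, and were enriched with magnetic beads that carry an antibody to CD31, an endothelial surface protein. Mice of the chronic social defeat (CSD) group lived for 14 days beside an aggressive CD-1 resident behind a partition and met it directly for 5 min each day. Home cage (HC) mice were housed for the same 14 days next to a CD-1 mouse, with the partition always in place. Each library pooled 4 mice of 1 group, and there were 2 libraries per group, so no p-value measures the spread between single animals. In the edgeR tests of CSD against HC the spread between pools was estimated in part from other genes. The degrees of freedom were 8.44 in endothelial cells, 15.7 in their capillary subclass and 69.7 in pericytes.

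The 4 libraries held 27297599 to 30361474 unique molecular identifiers (UMIs, counted RNA molecules), and 14415 barcodes passed as cells, 2553 to 4934 per library, and the 6 library pairs shared 20 barcodes in all, at most 9 in a pair. Cells were assigned to 16 classes by marker genes that did not include any of the 9 genes. Endothelial cells (EC) numbered 5067, of which 3251 were capillary, 810 arterial and 761 venous. All 11 endothelial markers were at least 2-fold higher in EC than in other cells, as were 9 of 10 arterial markers in arterial EC and 6 of 7 venous markers in venous EC. The same markers had assigned the cells, so these counts describe the gate and do not test it. Only 1 of 7 capillary markers reached that level in capillary EC, so this subclass is the least well marked, and its leading genes included the choroid plexus genes Ttr and 1500015O10Rik. Choroid plexus markers summed there to 575 and 119 CPM in CSD and to 473 and 561 CPM in HC. Venous EC were led by the inflammatory genes Lcn2, Icam1 and Vcam1, and the leading genes of arterial EC included the smooth muscle markers Myl9 and Acta2. The astrocyte class was led by Fabp7 and Npy, which the paper lists as signature genes of a separate Npy+ cell. It may therefore hold such cells beside astrocytes. The second CSD library stood apart, with 32.6% of its UMIs in cells against 51.8 to 56.8% in the others. Levels are given as UMIs of the gene in 1000000 UMIs of its class (CPM), per library in the order CSD 1, CSD 2, HC 1, HC 2, and values are not compared between genes.

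S1pr1, the main endothelial S1P receptor, was highest in EC in every library. It was measured at 831 and 871 CPM in the CSD libraries and at 579 and 588 CPM in the HC libraries, from 1202 to 2023 UMIs in each. EC held 78.4% of its 8150 UMIs in cells and 15.5% of the UMIs of all genes. A UMI of S1pr1 was seen in 64.9% and 70.2% of EC in CSD and in 57.0% and 43.7% in HC. Choroid plexus epithelial cells had a median of 13370 UMIs against 873 to 1521 in EC. An S1pr1 UMI was seen in 1.08% to 7.0% of them, and in CSD 2 all 7 UMIs lay in 1 cell. These shares do not measure free RNA, for which near-empty barcodes are given below. With each cell thinned to 500 UMIs the EC shares were 35.4% and 36.7% in CSD and 25.1% and 26.0% in HC, the same order of the groups at equal depth per cell.

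Astrocytes were the next class, at 243 and 388 CPM in CSD and 283 and 263 CPM in HC. The other classes of at least 10 cells per library stayed at 101 CPM or below. In a fit with library as a block, S1pr1 was higher in EC than in astrocytes by 1.36 on the log2 scale (SE 0.23, edgeR adjusted p = 2.84e-06), and higher than in microglia by 3.63, in smooth muscle cells by 3.52, in pericytes by 3.99 and in choroid plexus cells by 6.44, all past the threshold. Within EC the subclasses were close to each other. Arterial EC differed from capillary EC by 0.07 on the log2 scale (SE 0.08, edgeR adjusted p = 0.551) and venous EC by -0.12 (SE 0.08, edgeR adjusted p = 0.499).

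**Figure D1:**
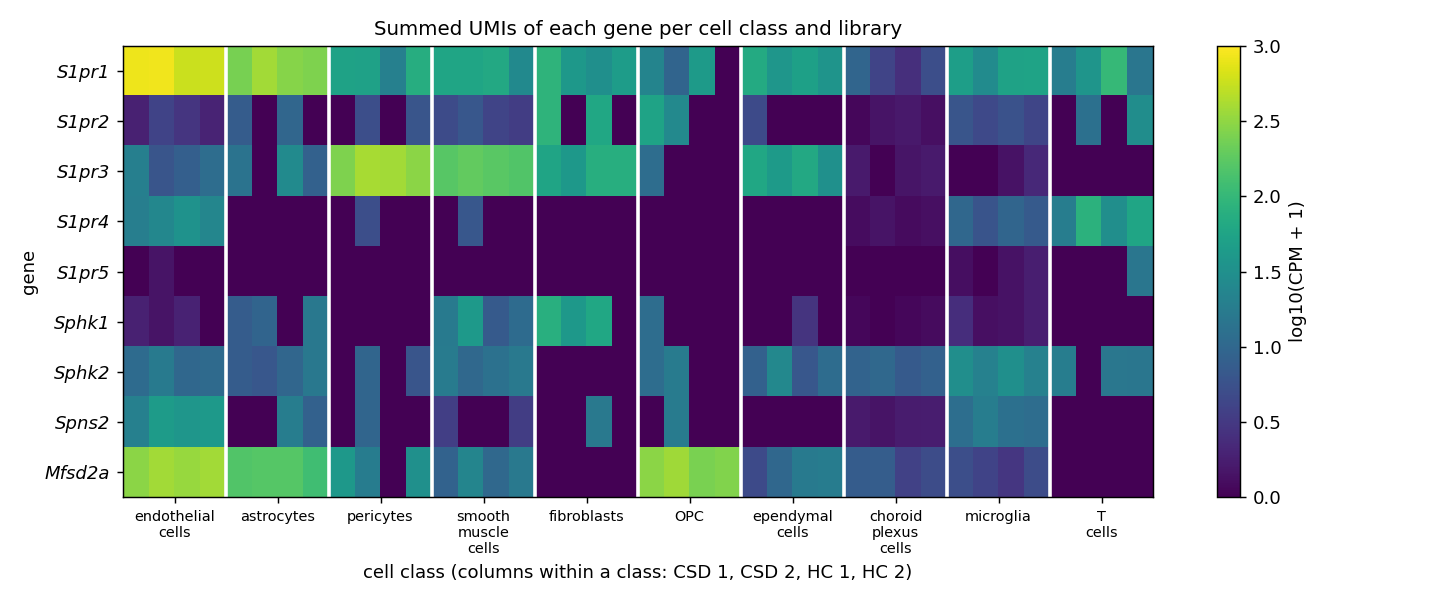
Level of each of the 9 genes, as log10(CPM + 1) by colour, in 10 cell classes, each with 4 columns for the libraries CSD 1, CSD 2, HC 1 and HC 2. S1pr1 and Mfsd2a are brightest in EC or close to it, S1pr3 is brightest in pericytes and smooth muscle cells, and S1pr5 is at 0 or on 1 or 2 UMIs in every column shown.

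Between CSD and HC the levels of S1pr1 in EC did not overlap. Both CSD libraries lay above both HC libraries (851 ± 27.9 against 584 ± 6.08 CPM, SD, n = 2 each), a 1.51-fold difference with a 95% interval of 1.20 to 1.90 (log2 fold change 0.59, SE 0.15, edgeR adjusted p = 0.312). That was the 105th lowest p of 10386 genes, and it did not pass the adjusted threshold of 0.05. By the same measure 13.8% of all genes tested in EC had both CSD libraries above both HC libraries, and 2 of the 6 genes of this set that were tested did, the other being Sphk2. The call turned on the tool, as DESeq2 gave an adjusted p of 0.0498. Within edgeR, leaving out the filter on low counts gave 0.820. The adjustments ran over unlike sets of genes, in edgeR 10386 with the filter and 17380 without it. DESeq2 gave an adjusted p in EC to only 2 of the 6 genes of this set. The call also turned on which library was left out. A fit of CSD against HC without 1 library takes the spread of that group from the other group. For single genes only the effect size of such fits is given here. The log2 fold change stayed between 0.54 and 0.63 under every alternative run.

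In capillary EC the S1pr1 level was 892 and 881 CPM in CSD and 573 and 578 CPM in HC. The groups did not overlap, as in 16.4% of the genes tested there, and the difference was 1.59-fold (95% interval 1.25 to 2.02, edgeR adjusted p = 0.111). DESeq2 gave an adjusted p of 0.0286 for the same sums, and edgeR with no filter on low counts gave 0.0183. Passing again turned on which library was left out. The log2 fold change ran from 0.59 to 0.71 over the alternatives. In venous EC, the site of leukocyte entry into the brain, it was 788 and 871 CPM in CSD and 460 and 531 CPM in HC. This was the largest difference of S1pr1 among the 3 EC subclasses tested, at 1.75-fold (95% interval 1.30 to 2.34, edgeR adjusted p = 0.130), and 15.3% of the genes tested in venous EC separated the groups in this direction. There the adjusted p of edgeR was 0.0270 with no filter on low counts. DESeq2 called 0 of the 2 genes of this set to which it gave an adjusted p in venous EC. In capillary and venous EC, edgeR with no filter called more genes of any kind than with the filter, as given below. Passing in venous EC again turned on which library was left out. The log2 fold change in venous EC ran from 0.73 to 0.89 over the alternatives. The 38 fenestrated EC, too few to test, had 470 and 845 CPM in CSD and 306 and 290 CPM in HC from 4 to 19 UMIs.

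Arterial EC showed the smallest gap, with 807 and 836 CPM in CSD and 670 and 655 CPM in HC. Both CSD libraries again lay above both HC libraries, as in 15% of the genes tested, but the 1.26-fold difference had an interval that reached 1 (0.971 to 1.64, edgeR adjusted p = 0.943). The difference of the CSD effect itself was tested between subclasses. It was 0.34 lower on the log2 scale in arterial than in capillary EC (SE 0.16, edgeR adjusted p = 0.997) and 0.17 higher in venous than in capillary EC (SE 0.17, edgeR adjusted p = 1.0). Neither passed, so the CSD effect on S1pr1 was not shown to differ between the vessel segments. None of the 5 genes of this set that were tested passed in either of these comparisons, in which 0.0232% and 0.0812% of 8616 genes passed (427 and 394 genes had an unadjusted p below 0.05).

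**Figure D2:**
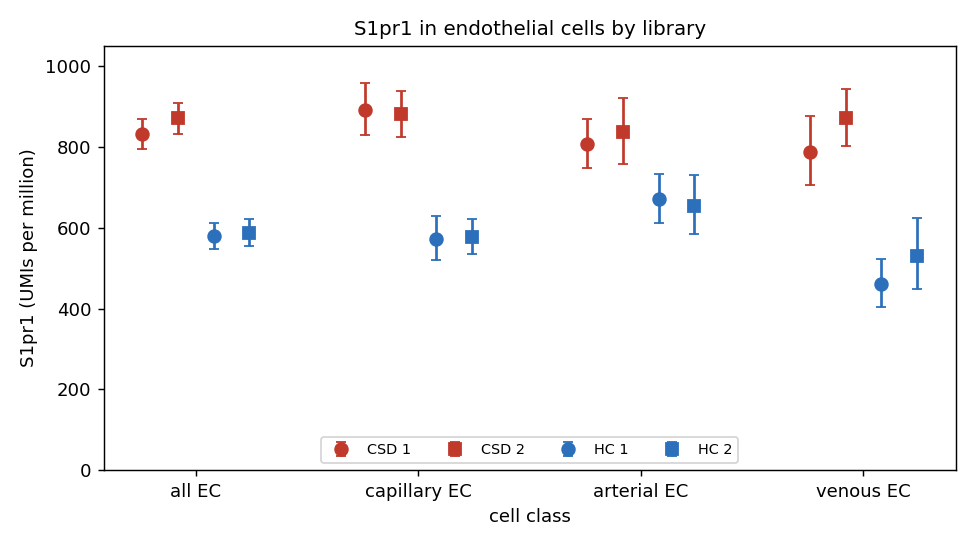
S1pr1 in CPM in all EC and in capillary, arterial and venous EC, 1 point per library (red CSD, blue HC) with exact 95% Poisson intervals that cover counting error only. The CSD points lie above the HC points in all 4 classes, with the narrowest gap in arterial EC (807 and 836 against 670 and 655 CPM).

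Free RNA carried S1pr1 with the same order. In barcodes of 1 to 100 UMIs, taken as near-empty droplets, S1pr1 was at 120 and 170 CPM in CSD and at 87.0 and 98.1 CPM in HC, well below the EC level. The share of all genes with this order in those barcodes is not given here, so the order is not shown to be particular to S1pr1. Smooth muscle markers summed in EC to 540 to 1089 CPM and pericyte markers to 415 to 636 CPM, and in both sums the lowest and the highest library were CSD libraries. The part of free RNA in the EC difference was not tested.

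Outside EC, S1pr1 was at 47.1 and 27.2 CPM in CSD microglia and at 52.2 and 53.4 CPM in HC microglia (log2 fold change -0.48, SE 0.27, edgeR adjusted p = 1.0). In astrocytes the CSD libraries, at 243 and 388 CPM, enclosed the HC libraries at 283 and 263 CPM (0.21, SE 0.45, edgeR adjusted p = 0.999). Choroid plexus cells had 8.39 and 3.09 CPM in CSD and 1.52 and 4.19 CPM in HC (1.17, SE 0.43, edgeR adjusted p = 1.0). The log2 fold change there was 1.49 without CSD 2, 0.10 without CSD 1 and 0.63 and 2.10 without HC 1 and HC 2. Endothelial markers in choroid plexus cells were at 267 and 233 CPM in CSD and at 200 and 223 CPM in HC, and their part in that difference was not tested.

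S1pr2 was near the limit of detection. All cells together held 125 of its UMIs, 38.4% of them in microglia, where it was at 5.10 and 3.65 CPM in CSD and 4.67 and 3.21 CPM in HC (log2 fold change 0.19, SE 0.48, edgeR adjusted p = 1.0). Fibroblasts gave 8 and 0 UMIs in CSD and 4 and 0 UMIs in HC, and oligodendrocyte precursor cells (OPC) 5 and 3 UMIs in CSD and none in HC. EC had 0.861 to 3.01 CPM, smooth muscle cells 2.55 to 5.55 CPM, and astrocytes and pericytes at most 1 UMI per library. These counts are too few for an order between the groups.

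S1pr3, a receptor of mural cells, marked pericytes and smooth muscle cells rather than endothelium. Pericytes had 260 and 409 CPM in CSD and 379 and 304 CPM in HC, and smooth muscle cells had 164 and 189 CPM in CSD and 172 and 150 CPM in HC. Smooth muscle cells held 42.2% of its 945 UMIs and pericytes 22.7%. EC were lower than pericytes by 4.83 on the log2 scale (SE 0.27, edgeR adjusted p = 2.88e-19) and lower than smooth muscle cells by 4.24 (SE 0.24, edgeR adjusted p = 9.75e-20). Ependymal cells had 31.2 to 63.8 CPM and fibroblasts 38.6 to 76.0 CPM. The CSD and HC libraries overlapped in both mural classes. The fold between CSD and HC was 1.07 in pericytes (95% interval 0.733 to 1.58, edgeR adjusted p = 0.975) and 1.07 in smooth muscle cells (0.780 to 1.46, edgeR adjusted p = 1.0). A change within these intervals is not excluded, and the intervals are not a limit of detection.

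In EC, S1pr3 was at 18.5 and 5.16 CPM in CSD and 7.06 and 10.8 CPM in HC. The counts were mostly in arterial EC, at 36.7 and 13.9 CPM in CSD and 12.6 and 30.3 CPM in HC, while capillary EC had at most 4.17 CPM. Arterial EC carried 1667 to 2296 CPM of the 7 smooth muscle markers, against 126 to 264 CPM in capillary EC and 50739 to 53712 CPM in smooth muscle cells, and 864 to 1605 CPM of the pericyte markers. The part of mural RNA in the arterial S1pr3 level was not tested.

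S1pr4, known as a lymphocyte receptor, was found at a low level in EC: 18.1 and 23.2 CPM in CSD and 32.5 and 23.0 CPM in HC. EC held 60.9% of its 348 UMIs and microglia 23.6%. It was higher in EC than in microglia by 1.38 on the log2 scale (SE 0.25, edgeR adjusted p = 4.75e-06). Astrocytes, fibroblasts, ependymal cells and OPC had no S1pr4 UMI, and the pooled EC level of 24.1 CPM was at least 6.10-fold higher than the 3.94 CPM that 3 UMIs would make over the 4 astrocyte libraries. T cells, with 116 cells in all, had a higher mean level than EC on far fewer UMIs, at 17.9 and 82.8 CPM in CSD and 29.0 and 56.6 CPM in HC from 1, 7, 2 and 4 UMIs. Near-empty barcodes held 1.6 to 3.36 CPM. The CSD and HC libraries overlapped in EC (log2 fold change -0.38, SE 0.25, edgeR adjusted p = 0.845). In arterial EC, at 17.8 and 23.8 CPM in CSD and 32.1 and 26.3 CPM in HC, the CSD values were below the HC values, as in 18.6% of the genes tested there (-0.52, SE 0.39, edgeR adjusted p = 0.998). In venous EC, where S1pr4 did not reach the filter, it was at 16 and 18 CPM in CSD and 31.3 and 18.2 CPM in HC. These levels came from 7, 12, 16 and 5 UMIs. The CSD values were below the HC values there too, as in 22.8% of the genes tested, but CSD 2 and HC 2 nearly coincided. Capillary EC had 20 and 27.3 CPM in CSD and 32.2 and 21.7 CPM in HC, with overlap.

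S1pr5, a receptor of the oligodendrocyte lineage, had 21 UMIs in all cells, 71.4% of them in oligodendrocytes. Only 27 oligodendrocytes were recovered, and they gave 2 and 10 UMIs in CSD and 1 and 2 UMIs in HC. White matter and myelin had been removed in the preparation, and the part of these steps in that low number was not tested. The 5067 EC gave 1 UMI.

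Sphk1 and Sphk2, the kinases that make S1P, had their largest share of UMIs in different cell classes, and smooth muscle cells held UMIs of both. Sphk1 had 92 UMIs in all cells, 45.7% of them in smooth muscle cells, with 12 and 22 UMIs in CSD and 4 and 4 UMIs in HC, or 15.6 and 40.7 against 6.14 and 10.2 CPM. Both CSD libraries lay above both HC libraries, as in 16% of the genes tested in that class. The pooled ratio was 3.39 with an exact interval of 1.54 to 8.48 that covers counting error only, and without CSD 2, which gave 22 of the 34 UMIs, it was 2.04 (0.767 to 5.75). It was 5.31 without CSD 1 and 2.55 and 4.23 without HC 1 and HC 2. The gene did not reach the filter on low counts in that class, and without the filter its log2 fold change was 1.74 (SE 0.54, edgeR adjusted p = 0.547). Fibroblasts had the highest mean level, at 77.9 and 38.6 CPM in CSD and 60.8 and 0 CPM in HC, but from 7, 1, 4 and 0 UMIs.

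EC gave 2, 1, 2 and 0 UMIs of Sphk1, and capillary and venous EC none. Sphk1 was lower in EC than in smooth muscle cells by 4.99 on the log2 scale (SE 0.57, edgeR adjusted p = 9.32e-10). Pericytes gave no UMI, so the pooled smooth muscle level of 17.9 CPM was at least 3.62-fold higher than the level of 3 UMIs over the pericyte libraries. EC were also lower than astrocytes (log2 fold change -3.30, edgeR adjusted p = 0.00595), a call lost without CSD 2 (0.0543) or without HC 2 (0.0695). It rests on 1 and 3 astrocyte UMIs in CSD and 0 and 2 in HC.

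Sphk2, the nuclear and mitochondrial kinase, had its highest mean level in microglia among the classes of at least 10 cells per library. Microglia were at 29.4 and 19.9 CPM in CSD and 30 and 20.1 CPM in HC. In CSD 2 ependymal cells lay above them, at 24.1 CPM from 8 UMIs. Microglia held 40.8% of the 699 UMIs of Sphk2 and 20.1% of the UMIs of all genes. Choroid plexus cells held 29.5% against 49.2% of all UMIs, at 6.06 to 9.26 CPM, and EC held 14.3% against 15.5%. Smooth muscle cells had 9.24 to 16.9 CPM, astrocytes 5.58 to 15.0 CPM and pericytes at most 8.52 CPM. It was lower in EC than in microglia by 1.48 on the log2 scale (SE 0.20, edgeR adjusted p = 1.92e-08). The groups overlapped in microglia, with a fold of 1.01 (95% interval 0.639 to 1.59, edgeR adjusted p = 1.0). In EC the CSD libraries, at 10.3 and 15.9 CPM, lay above the HC libraries at 8.94 and 9.78 CPM, from 19 to 37 UMIs each (log2 fold change 0.53, SE 0.35, edgeR adjusted p = 0.840). The value was 0.82 without CSD 1 and 0.23 without CSD 2. The EC subclasses had 6.06 to 19.8 CPM. Near-empty barcodes held 6.67 to 12.8 CPM of Sphk2, close to the EC level.

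Spns2, the S1P exporter of endothelial cells, was at 19.4 and 43.9 CPM in CSD EC and at 36.2 and 41.1 CPM in HC EC. EC held 58.1% of its 530 UMIs and microglia 27.7%, at 10.8 to 17.6 CPM. The 27 oligodendrocytes lay above EC in every library, at 38.8 and 75.7 CPM in CSD and 89.2 and 103 CPM in HC, but from 9 UMIs in all. EC were higher than microglia by 1.06 on the log2 scale (SE 0.21, edgeR adjusted p = 2.26e-05), and higher than astrocytes by 3.31, pericytes by 3.69, smooth muscle cells by 4.41 and choroid plexus cells by 4.61, all past the threshold. Near-empty barcodes held 5.34 to 12.8 CPM. In EC the groups overlapped, with CSD 1 the lowest and CSD 2 the highest of the 4 libraries (log2 fold change -0.24, SE 0.33, edgeR adjusted p = 0.932). Without CSD 2 it was -0.91, and without CSD 1 it was 0.24, the other direction.

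The EC subclasses differed in Spns2. Arterial EC had 8.29 and 43.7 CPM in CSD and 19.5 and 20.2 CPM in HC, capillary EC 25.8 and 43.3 CPM in CSD and 46.9 and 45.9 CPM in HC, and venous EC 27.4 and 50.9 CPM in CSD and 45.0 and 54.6 CPM in HC. Arterial EC were lower than capillary EC by 0.84 on the log2 scale (SE 0.23, edgeR adjusted p = 0.00293), in 3 of 4 libraries, and in CSD 2 the levels were close. With cells of at least 1000 UMIs the difference was -0.58 and did not pass (edgeR adjusted p = 0.119). Venous EC did not differ from capillary EC past the threshold (0.14, edgeR adjusted p = 0.832).

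Mfsd2a, the lysolipid transporter of the blood-brain barrier, was highest in capillary EC of all EC subclasses, at 418 and 469 CPM in CSD and 461 and 469 CPM in HC. Venous EC followed with 251 and 368 CPM in CSD and 307 and 327 CPM in HC, and arterial EC had 238 and 272 CPM in CSD and 250 and 214 CPM in HC. Arterial EC were lower than capillary EC by 0.86 on the log2 scale (SE 0.09, edgeR adjusted p = 3.34e-13) and venous EC were lower by 0.52 (SE 0.09, edgeR adjusted p = 1.81e-05), and the order held in all 4 libraries. Of the 4 genes of this set tested between subclasses, 2 passed for arterial against capillary EC, where 25.9% of all genes passed, and 1 for venous against capillary EC, where 6.55% did.

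**Figure D3:**
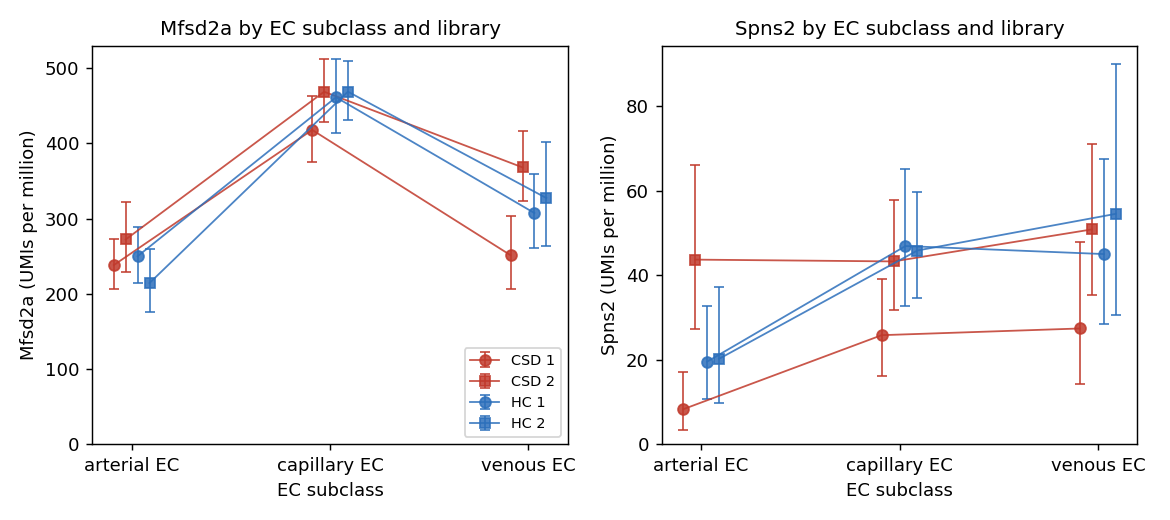
Mfsd2a (left) and Spns2 (right) in CPM in arterial, capillary and venous EC, 1 line per library (red CSD, blue HC), with exact 95% Poisson intervals for counting error. Mfsd2a peaks in capillary EC in all 4 libraries (418 to 469 CPM), and Spns2 is lower in arterial than in capillary EC in 3 of 4 libraries.

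Among all EC, Mfsd2a was at 299 and 385 CPM in CSD and 340 and 378 CPM in HC. The groups overlapped, and the fold was 0.986 with a 95% interval of 0.758 to 1.28 (edgeR adjusted p = 0.991). A UMI was seen in 32.2% to 44.4% of EC, at median depths of 873 to 1521 UMIs. The EC share was 15.4% to 20.7% with each cell thinned to 500 UMIs, and 0.51% to 1.17% of microglia had a UMI. OPC had 301 and 372 CPM in CSD and 250 and 269 CPM in HC from 10 to 36 cells per library, with 28 and 45 UMIs in CSD and 12 and 5 UMIs in HC, and were not tested. Astrocytes had 120 to 159 CPM. T cells, fibroblasts and border-associated macrophages had no UMI. EC were higher than astrocytes by 1.39 on the log2 scale, pericytes by 4.30, smooth muscle cells by 4.53, choroid plexus cells by 5.33 and microglia by 6.35, all past the threshold. EC held 82.0% of its 3761 UMIs, and near-empty barcodes held 30.9 to 62.2 CPM.

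In choroid plexus cells Mfsd2a was at 6.45 and 6.61 CPM in CSD and 2.80 and 3.97 CPM in HC. The CSD libraries lay above the HC libraries for 2 of the 3 genes tested in that class, Mfsd2a and Sphk2, and for 16% of all genes there. The log2 fold change of Mfsd2a was 0.90 (SE 0.32, edgeR adjusted p = 1.0). The endothelial markers in these cells had the same order, as given above, and their part in the Mfsd2a difference was not tested.

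Between classes 7 of the 9 genes could be tested, all except S1pr2 and S1pr5. Against microglia 6 of 7 passed (61.8% of 12175 genes), against pericytes 5 of 7 (27.6%), against smooth muscle cells 6 of 7 (43%), against astrocytes 5 of 7 (44.8%) and against choroid plexus cells 5 of 7 (74.3%). The median log2 fold change of all genes in these fits was 0.17 for EC against pericytes, 0.12 against smooth muscle cells and 0.14 against astrocytes, and 0.09 or less in the others. S1pr1, S1pr4, Spns2 and Mfsd2a, which were higher in EC, and S1pr3, which was lower, separated EC from pericytes and smooth muscle cells.

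Between CSD and HC none of the 9 genes passed with edgeR in any of the 9 classes and EC subclasses tested. The genes that reached the filter on low counts made 33 tests, 6 in EC, 5 in capillary, 5 in arterial and 3 in venous EC, 6 in microglia, 1 in pericytes, 2 in smooth muscle cells, 2 in astrocytes and 3 in choroid plexus cells. Of these, 5 had an unadjusted p below 0.05, namely S1pr1 in EC, capillary EC, venous EC and choroid plexus cells, and Mfsd2a in choroid plexus cells. Capillary and venous EC gave 2816 and 1308 of the 6387 S1pr1 UMIs of EC, so their results are not independent of the EC result. The share of all genes with an unadjusted p below 0.05 is not given here. DESeq2 called 2 of the 25 tests for which it gave an adjusted p, S1pr1 in EC and in capillary EC. In EC it called more genes of any kind than edgeR did, as given below. The DESeq2 share over all genes is not given here. With edgeR few genes of any kind passed: 0.0674% of 10386 in EC, 0.367% in capillary, 0.139% in arterial and 0.348% in venous EC, 0.214% in pericytes, 0.0172% in choroid plexus cells, and 0% in microglia, smooth muscle cells and astrocytes. In simulated EC counts with 2 libraries per group and 200 changed genes, 39% of genes with a 2-fold change and 96% of genes with a 4-fold change were recovered among 10386 genes. Fewer genes passed in the real EC comparison, so these shares may not carry over to it. A change as small as that of S1pr1 in EC was not simulated.

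**Figure D4:**
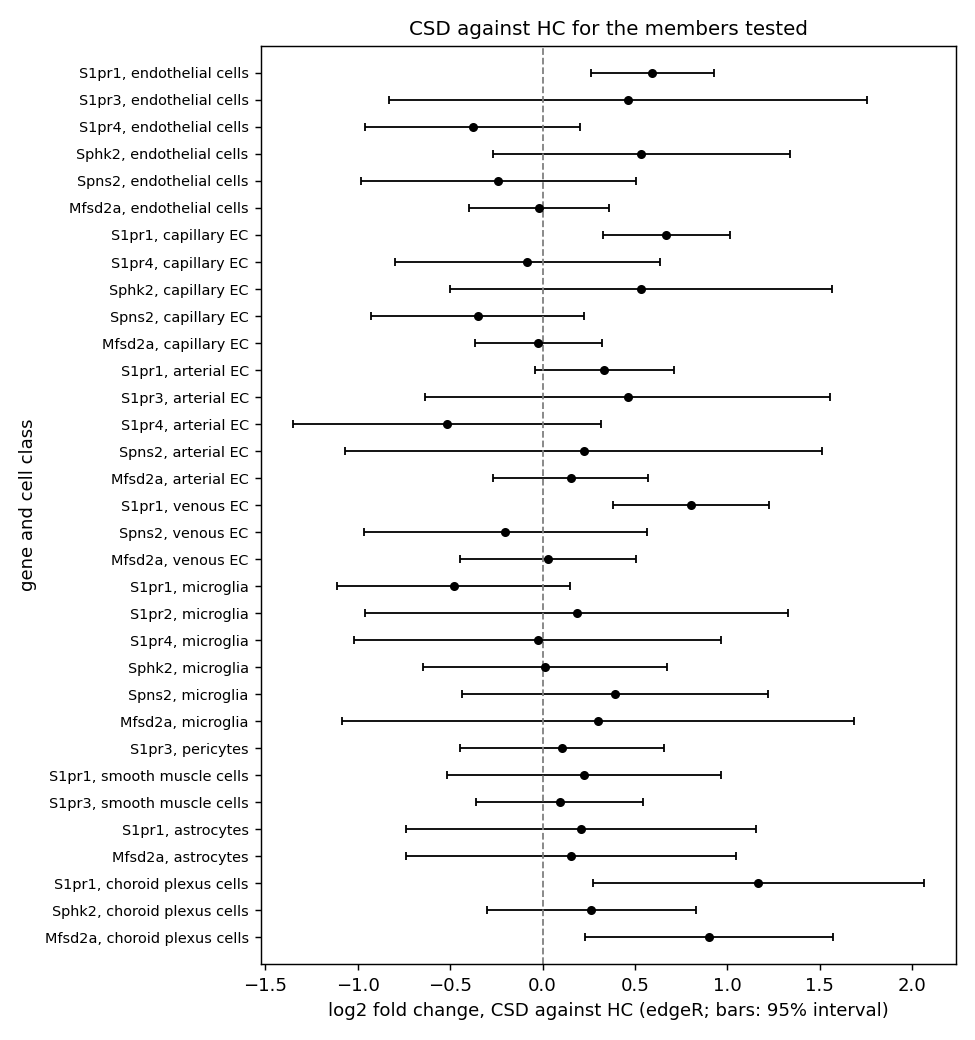
Log2 fold change of CSD against HC with its 95% interval from edgeR for the 33 tests, 1 row per gene and cell class. The S1pr1 intervals in EC, capillary EC, venous EC and choroid plexus cells and the Mfsd2a interval in choroid plexus cells lie above 0, and no test passed after adjustment over all genes.

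The wider pathway was read in 57 genes in 6 lists, of which 50 could be tested in EC. None passed with edgeR in any of the 352 tests over the 9 classes and EC subclasses, which share cells with EC. Of these tests 21 had an unadjusted p below 0.05, and the share of all genes at that level is not given here. DESeq2 called 1 of 294, Acer2 in EC, and the DESeq2 share over all genes is not given here. The supply genes, which make ceramide and sphingosine, had a median log2 fold change of 0.06 over 14 of 15 genes. The breakdown genes, which remove S1P by lyase and phosphatases, had a median of -0.31 over 5 of 6 genes, with 4 of the 5 below 0. Carriers and other exporters had a median of -0.01 over 3 of 6 genes, G proteins and effectors 0.20 over 12 of 12, receptor regulation 0.16 over 6 of 8 (1 entry was an older symbol of Grk2 and was not in the tables) and caveolae and lipid uptake -0.06 over 10 of 10. The median of all genes tested in EC was -0.01.

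Acer2, an alkaline ceramidase that releases sphingosine in the Golgi, had the largest value of the pathway in EC. It was at 159 and 278 CPM in CSD and at 105 and 119 CPM in HC, with no overlap between the groups (log2 fold change 1.01, SE 0.25, edgeR adjusted p = 0.304). CSD 2 was the highest library. DESeq2 gave an adjusted p of 0.0210. The log2 fold change of Acer2 was 0.59 without CSD 2 and ran from 0.59 to 1.37 over the alternatives. With edgeR it did not pass with no filter on low counts (0.820), with total-count scaling (0.412) or with cells of at least 1000 UMIs (0.209). Degs1, which makes the double bond of ceramide, was at 62.0 and 59.0 CPM in CSD and 80.5 and 79.7 CPM in HC (-0.36, SE 0.15, edgeR adjusted p = 0.713), and Acer3 had a log2 fold change of 0.50.

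Among the breakdown genes the S1P lyase Sgpl1 had a log2 fold change of -0.39, the lipid phosphatase Plpp3 -0.34 and the S1P phosphatase Sgpp2 -0.31. Plpp3 was at 63.7 CPM in CSD 2 against 112 to 125 CPM in the other libraries, and its value was -0.84 without CSD 1 and 0.06 without CSD 2. Leaving out 1 library at a time gave -0.65 to -0.14 for Sgpl1 and -0.60 to -0.05 for Sgpp2. Among the carriers Abcc1 was at -0.69, Abca1 at 0.09 and Abcg2, a drug efflux pump of the barrier, at -0.01. The G protein Gna12 was at 34.0 and 28.0 CPM in CSD and 21.2 and 20.5 CPM in HC (0.62, SE 0.21, edgeR adjusted p = 0.572). Gnai3, a G protein that S1pr1 couples to, was at 0.36 and the Rac activator Tiam1 at -0.47. The value of Tiam1 was -0.81 without CSD 2, -0.16 without CSD 1 and -0.16 without HC 2.

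Klf2, a flow-responsive factor known to drive S1pr1 in lymphocytes, was at 2501 and 3594 CPM in CSD and 1688 and 2612 CPM in HC. The groups overlapped (0.55, SE 0.25, edgeR adjusted p = 0.741). The value was 0.80 without CSD 1, 0.31 without CSD 2, 0.31 without HC 1 and 0.90 without HC 2. Stat3 was at 0.24 and Arrb2 at -0.23. Of the caveolae and lipid uptake genes, Cavin2, a caveolar coat protein, was at 889 and 702 CPM in CSD and 644 and 577 CPM in HC (0.43, SE 0.18, edgeR adjusted p = 0.699). Its value was 0.63 without CSD 2 and 0.26 without CSD 1. The fatty acid binding protein Fabp5 was at -0.45 and Acsl3 at -0.17.

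**Figure D5:**
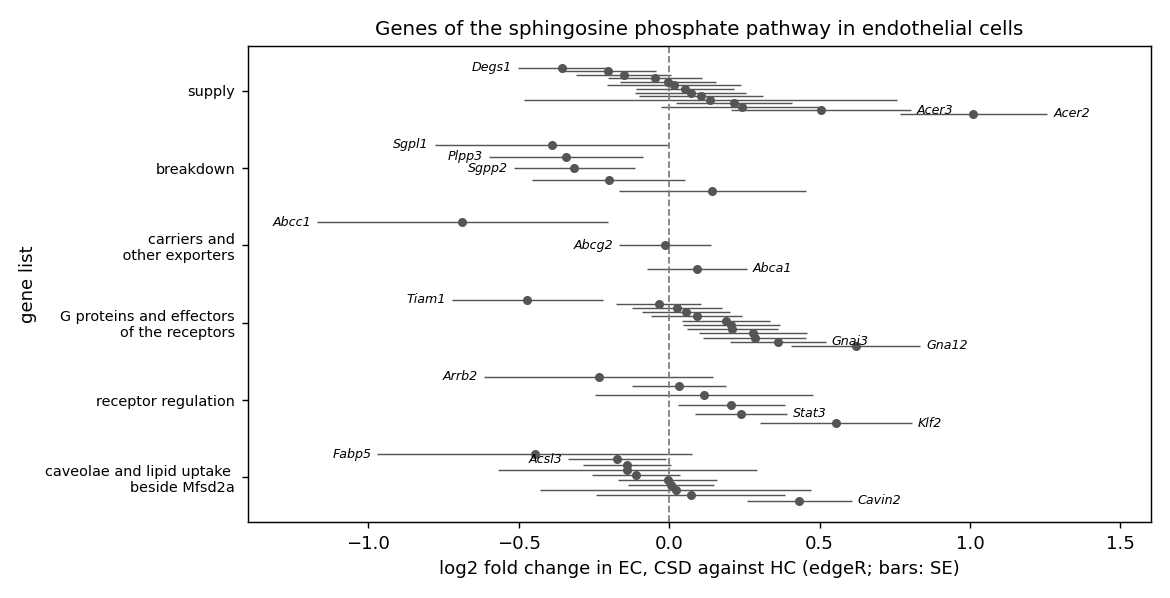
Log2 fold change of CSD against HC in EC with its SE for the 50 pathway genes tested, grouped by list, with the 3 genes of largest value in each list named. Acer2 lies furthest to the right (1.01) and Abcc1 furthest to the left (-0.69), and no gene passed after adjustment.

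Genes with the most similar profile over 10 classes in 4 libraries were ranked by Pearson's r of log2(CPM + 10) over 40 points that share libraries and depth, among 11750 genes, as a description with no test. For S1pr1 they were Ccdc85a (0.855), Irgm2 (0.815), Fam171a1 (0.804), Abcb1a (0.799) and Gpcpd1 (0.798), of which Abcb1a, the P-glycoprotein pump, was a marker used to define EC. For Mfsd2a they were Caskin2 (0.895), Dnm3 (0.889), Srgap1 (0.869), Ddah1 (0.866) and Inpp5f (0.851). For Spns2 they were Parvb (0.831), Tal1 (0.830), Arap3 (0.794), Sh3tc1 (0.785) and Slc39a8 (0.772). For Sphk1 they were Itgbl1 (0.816), Igfbp4 (0.789), Foxc2 (0.779), Itga8 (0.771) and Serping1 (0.746).

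On the GRCm38 assembly with GENCODE vM21 genes, S1pr1 lies on chromosome 3 at 115710433 to 115715072, Mfsd2a on chromosome 4 at 122946850 to 122961188, Spns2 on chromosome 11 at 72451638 to 72489904, S1pr3 on chromosome 13 at 51408639 to 51422797, and Sphk1 on chromosome 11 at 116530925 to 116536674. The other genes are S1pr2 on chromosome 9 at 20962361 to 20976781, S1pr4 on chromosome 10 at 81497747 to 81500132, S1pr5 on chromosome 9 at 21242912 to 21248443 and Sphk2 on chromosome 7 at 45709467 to 45718002. None of the 9 overlaps a gene on its own strand. On the opposite strand Sphk2 overlaps Dbp and Rpl18, Spns2 overlaps Mybbp1a, and S1pr3, S1pr5 and Sphk1 each overlap a predicted gene. The strand setting of the counting is not given in the sources used here. Whether reads of such partners were counted with these genes was not tested.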

How the data were processed

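Single-cell libraries were made with the 10x Genomics 3' v3.1 kit from 4 pools of CD31-enriched brain cells. The authors deposited raw UMI counts per gene and barcode, 1 matrix per library, not normalized and with near-empty barcodes kept; the processing notes name Cell Ranger 4.0 and GRCm38 (mm10). Cells were barcodes with at least 500 UMIs, 250 genes and at most 25% mitochondrial UMIs. Classes were set by a gate on 137 markers in 20 lists (at least 2 markers and 3 UMIs of a class), whose limits were set after the data were seen; cells with a second class at 0.5 or more of the first were set aside as mixed (546 cells) and 195 stayed unassigned. This was the treatment of doublets, since Scrublet (scanpy 1.11.5, expected 6%) marked 0.0981 to 1.48% of cells, under 0.5% in both CSD libraries, where it did not work. Every class had at least 4 of its markers 2-fold or more above other cells, except the capillary subclass (1 of 7) and the fenestrated subclass, which has 3. The gate used these same markers, so this count is no test of it.

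For each class the UMI counts of its cells were added up within a library, and the sums were tested across all genes with edgeR 4.0.16 (R 4.3.3; filterByExpr, TMM, quasi-likelihood test, two-sided, Benjamini-Hochberg adjustment, threshold 0.05) in EC, the 3 EC subclasses, microglia, pericytes, smooth muscle cells, astrocytes and choroid plexus cells; OPC, T cells, fibroblasts and ependymal cells, which also had at least 10 cells per library, were described without a test, and classes and subclasses were compared with library as a block. In simulated counts with 200 changed genes, 39% of 2-fold and 96% of 4-fold changes were recovered in EC with 4 false calls (10386 genes), and 33% and 91% with 8 false calls in pericytes (2798 genes). Intervals of counts are exact Poisson, of ratios exact binomial, at 95%, and cover counting error only; a count of 0 was bounded by 3 UMIs over the libraries of the class. Alternatives were DESeq2 1.42.0, no filter, the replicate block, each library left out, at least 1000 UMIs, a stricter gate, a complexity filter at 0.8 and removal of Scrublet doublets; scaling by total counts, the alternatives of pathway genes and of the subclass effects were added after the data were seen.

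The 9 genes, the pathway and marker lists and the tests were chosen with earlier results of these data known. The rule named all 9 genes in every class with at least 10 cells per library, and those not given in a sentence are in the plot of levels by class; of each pathway list, the genes past the threshold or, with none, the 3 of largest log2 fold change in EC; and for S1pr1, Spns2, Sphk1 and Mfsd2a the 5 genes of highest correlation at 20 CPM or more in some class. Values shown for the OPC, T cell, fibroblast and oligodendrocyte classes and for S1pr2 in cells other than microglia were not tested. S1pr1 in near-empty barcodes was compared in barcodes of 1 to 100 UMIs.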

Additional observations from a re-analysis of the deposited data

Results flagged for a closer look

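S1pr1 was found in barcodes of 1 to 100 UMIs, which the comparisons of cells do not use, above the level of the control samples. It was at 119.9 CPM in CSD 1 and 169.8 CPM in CSD 2, against 87.0 and 98.1 CPM in the HC libraries. The share of all genes with this order in those barcodes is not given here. EC of the same libraries had 831, 871, 579 and 588 CPM. The part of this RNA in the level of cells was not tested.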

How the results depend on the processing

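The 9 genes and the named pathway genes gave 51 results between CSD and HC under 593 alternatives, of which 526 kept direction and side of the threshold, 23 newly passed and 44 turned direction; none was lost, since none had passed. Of the 526, 86 had the very values of the reported fit because the alternative removed no cell of the class (in EC, the complexity filter and the removal of Scrublet doublets), and they test nothing. Of 301 alternatives of 43 differences between classes, 295 were kept, 3 fell below the threshold and 3 turned. The cause was not tested for any change below. DESeq2 gave no adjusted p for 14 values, which are left out. Depth limits S1pr2, S1pr5 and Sphk1, with 125, 21 and 92 UMIs in all cells.

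Counts of genes past the threshold between CSD and HC moved by more than 1.5 times as follows. In EC (7 genes) there were 54 with DESeq2, 0 with no filter and 4 with total-count scaling; in capillary EC (31) 111 with no filter, 8 with cells of at least 1000 UMIs and 19 with the stricter gate; in arterial EC (10) 5 with DESeq2, 49 with no filter, 5 with at least 1000 UMIs and 1 with the stricter gate; in venous EC (22) 87 with no filter and 6 with the stricter gate. In microglia (0) there were 1 with DESeq2 and 26 with no filter; in pericytes (6) 1 with DESeq2, 1 with total-count scaling, 0 with at least 1000 UMIs and 1 with the stricter gate; in smooth muscle cells (0) 9 with no filter; in astrocytes (0) 1 with DESeq2, 18 with no filter, 4 with the stricter gate and 1 without Scrublet doublets; and in choroid plexus cells (2) 5 with DESeq2, 41 with no filter, 0 with total-count scaling, 8 with the complexity filter and 4 without Scrublet doublets.

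The replicate numbers are shared by both groups in the labels but nothing says that they pair the libraries, and the deviations of same-numbered libraries correlated at -0.018 to 0.096 in 8 classes and 0.371 in microglia. With the replicate block the counts were 132 in EC, 84 in capillary, 55 in arterial and 115 in venous EC, 8 in microglia, 6 in astrocytes and 33 in choroid plexus cells. S1pr1 had an adjusted p under that block of 0.0686 in EC, 0.0450 in capillary EC and 0.00823 in venous EC, and Acer2 in EC of 0.00372, all edgeR values. Mfsd2a in venous EC was -0.0059 with the block.

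Leaving out each library in turn gave 43 to 473 genes in EC, 1 to 328 in capillary, 23 to 95 in arterial and 17 to 181 in venous EC, 0 to 47 in microglia, 0 to 18 in pericytes, 0 to 34 in smooth muscle cells, 1 to 19 in astrocytes, 0 to 61 in choroid plexus cells, 327 to 494 for venous against capillary EC (514 with all libraries), and 0 to 2 and 3 to 8 for the CSD effect in arterial and venous against capillary EC (2 and 7). A group left with 1 library was taken to vary like the other group. Log2 fold changes that turned ran, for S1pr1, from -0.17 to 0.52 in astrocytes and -0.19 to 1.15 in smooth muscle cells; for S1pr2 from -0.0027 to 0.45 in microglia; for S1pr3 from -0.53 to 1.14 in arterial EC, -0.72 to 1.14 in EC, -0.34 to 0.30 in pericytes and -0.11 to 1.42 for EC against astrocytes; for S1pr4 from -0.40 to 0.20 in capillary EC, -0.43 to 0.27 in microglia and -0.12 to 0.042 for arterial against capillary EC; for Sphk2 from -0.21 to 0.30 in microglia; for Spns2 from -1.20 to 1.15 in arterial EC, -0.91 to 0.24 in EC, -0.055 to 0.76 in microglia and -0.75 to 0.12 in venous EC; and for Mfsd2a from -0.081 to 0.025 in capillary EC, -0.18 to 0.16 in EC, -0.15 to 0.96 in microglia and -0.27 to 0.28 in venous EC. In EC they ran from -0.0028 to 0.22 for Abca1, -0.0097 to 0.027 for Abcg2, -1.09 to 0.86 for Fabp5 and -0.84 to 0.059 for Plpp3.

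Other turned log2 fold changes were Mfsd2a in EC (0.0063 with no filter and 0.022 with at least 1000 UMIs), capillary EC (0.00043 with the stricter gate), arterial EC (-0.084 with the stricter gate), venous EC (-0.028 with total-count scaling) and astrocytes (-0.16 with at least 1000 UMIs); Spns2 in arterial EC (-0.20 with the stricter gate); Sphk2 in microglia (-0.020 with total-count scaling and -0.037 with at least 1000 UMIs); S1pr4 in microglia (0.016 with the stricter gate and 0.0024 without Scrublet doublets); and in EC Abcg2 (0.014 with no filter and 0.050 with at least 1000 UMIs) and Abca1 (-0.059 with at least 1000 UMIs).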
